A study of Mus musculus with 4 samples.

Results

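A set of 10 cell-surface and secreted adhesion genes was followed in MC38 cells, a mouse colon adenocarcinoma line. They are 8 genes of the immunoglobulin superfamily (Icam1, Vcam1, Alcam, Mcam, L1cam, Ncam1, F11r and Bcam), the hyaluronan receptor gene Cd44 and the von Willebrand factor gene Vwf. They were chosen with earlier results of these data known and taken by name. All 10 were found among the 26561 genes of the count table. The cells carry the genotype WT and are labelled an epithelial line. IR cells received 30 Gy of X-rays in 1 fraction and were harvested at 60 h, whereas nonIR cells were left unirradiated, with no harvest time given. Each group holds 2 bulk messenger RNA libraries, with 26059171 to 29180110 counts in the IR libraries and 27995608 to 29881492 in the nonIR libraries. At least 1 count was found for 22713 and 22663 genes in the IR libraries and for 19413 and 19531 in the nonIR libraries. Time in culture and cell density cannot be told apart from irradiation. The labels do not say whether replicate libraries stem from separate cultures, so the p-values reflect a spread that may be technical only.

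Immunoglobulin adhesion molecules are membrane proteins whose extracellular immunoglobulin domains bind partners on neighbouring cells, in the matrix or on leukocytes. ICAM-1 and VCAM-1 are the classic cytokine-inducible ligands of leukocyte integrins. ALCAM, MCAM, L1CAM and NCAM1 are linked to contacts and migration of tumour and neural cells, F11R is a tight junction molecule, and BCAM is a receptor for laminin. CD44 binds hyaluronan on the surface of many tumour cells. Von Willebrand factor is a large secreted protein of endothelial cells and platelets that tethers platelets to matrix.

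The label of an epithelial line was set against markers. Epcam had 1 count in 1 IR library and 0 in the other libraries. Krt18 had 2 and 3 counts in the IR libraries and 0 in both nonIR libraries, so these 2 defining epithelial genes were nearly absent. Krt8 had 59 counts over all libraries. Cdh1, E-cadherin, was the highest epithelial marker, with 2173 and 1798 counts in the IR libraries and 998 and 1009 in the nonIR libraries. The sum of 9 epithelial markers, most of it Cdh1, was 76.1 and 70.2 CPM in the IR libraries and 38.5 and 36.5 CPM in the nonIR libraries. Of 3 epithelial markers tested, 2 were higher in IR cells. Of the other lists, the sum of 7 fibroblast markers was 1104 and 1126 CPM (counts per 1000000 of the scaled library size) in the IR libraries and 857 and 848 CPM in the nonIR libraries, led by the collagen gene Col1a2. The sum of 7 neuron and glia markers was 43.1 and 44.0 CPM in the IR libraries and 18.3 and 15.3 CPM in the nonIR libraries, led by the tau gene Mapt.

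Icam1 had the steepest rise, followed by Vwf and Alcam, and Vcam1 rose 1.32-fold. Ncam1 fell to 0.833 of its nonIR level, and the abundant genes Cd44 and L1cam stood at 0.945 and 0.948 of theirs. Of the 10 genes, 8 passed the filter on low counts, while F11r and Bcam were too rare to be tested. With edgeR's quasi-likelihood test and a Benjamini-Hochberg adjusted p under 0.05, 4 of the 8 were higher in IR cells and 3 were lower. In 5 of the 8 both IR libraries lay above both nonIR libraries in CPM, as in 39.7% of all tested genes, and in 3 both lay below, as in 38.7%. Over all 15298 tested genes, 60.7% passed, 30.4% higher and 30.3% lower, so a call by itself was common.

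A window of bases around the RefSeq start site is shown for 3 members that span the range of response, Icam1 with the largest rise, Alcam with a moderate one and Cd44 with almost none. The windows come from RefSeq on GRCm38.p6 and run from 250 bases before to 50 bases after the annotated start, read 5′ to 3′ on the strand of the gene. Capitals mark matches to the motifs described in the next paragraph.
Icam1 (chr9:21015690-21015989, plus strand): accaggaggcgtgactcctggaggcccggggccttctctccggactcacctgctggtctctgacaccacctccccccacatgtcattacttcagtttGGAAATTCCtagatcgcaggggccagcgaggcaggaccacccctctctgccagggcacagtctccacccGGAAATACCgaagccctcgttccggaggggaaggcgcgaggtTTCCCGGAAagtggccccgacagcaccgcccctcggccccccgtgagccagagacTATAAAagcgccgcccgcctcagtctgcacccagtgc
Alcam (chr16:52453032-52453331, minus strand): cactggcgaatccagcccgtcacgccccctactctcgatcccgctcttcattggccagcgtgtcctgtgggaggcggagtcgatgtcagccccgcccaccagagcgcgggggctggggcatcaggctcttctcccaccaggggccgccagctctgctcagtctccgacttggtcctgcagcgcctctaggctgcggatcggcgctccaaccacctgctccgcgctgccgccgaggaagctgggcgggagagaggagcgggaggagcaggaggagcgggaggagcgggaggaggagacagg
Cd44 (chr2:102901616-102901915, minus strand): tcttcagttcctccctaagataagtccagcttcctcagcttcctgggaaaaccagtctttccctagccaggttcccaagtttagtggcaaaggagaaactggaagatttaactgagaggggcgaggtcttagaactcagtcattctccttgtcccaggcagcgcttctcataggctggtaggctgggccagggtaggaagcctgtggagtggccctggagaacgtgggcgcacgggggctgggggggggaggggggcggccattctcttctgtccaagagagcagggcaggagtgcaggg

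A set of 5 short motifs was searched on both strands, a core of the NF-kappaB site (GGNNTTTCC), the interferon gamma-activated site (GAS, TTCNNNGAA), a core of the interferon-stimulated response element (ISRE, GAAA, any 2 bases, GAAA), the AP-1 site (TGANTCA) and a TATA box (TATAAA). No match in the windows printed here overlapped another. The Icam1 window held 4 matches. Its NF-kappaB core matches, both on the reverse strand, began 153 and 84 bases before the RefSeq start, and a GAS match began 42 bases before it. Its TATA match began 13 bases after the RefSeq start and 32 bases before the Icam1 start of GENCODE M21, the gene annotation used elsewhere here. The windows of Alcam, L1cam and Bcam lie wholly within the GENCODE M21 gene, downstream of its start. These windows and those of Cd44 and Mcam held none of the 5 motifs, and that of F11r held an AP-1 match alone. Vcam1, Ncam1 and Vwf were not analysed here for promoter sequence, so 7 members had a window.

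Over all 32851 promoter windows, 5.82% held the NF-kappaB core, 8.30% the GAS motif, 3.44% the ISRE core, 7.81% the AP-1 motif and 13.6% the TATA motif. Both the NF-kappaB core and the GAS motif, as in Icam1, were found in 0.551% of windows. Of 79 tested genes with such a window, 35 rose (44.3%) and 20 fell (25.3%), beside 32.8% and 33.7% of the 10587 tested genes with any window. By single motif, 34.5% of tested genes with the NF-kappaB core rose and 32.0% fell, and 36.9% and 30.3% with the GAS motif. These shares were 48.8% and 25.2% with the ISRE core, 43.0% and 28.0% with AP-1, and 42.0% and 27.1% with the TATA motif. The share that rose with the pair was above that with either of its 2 motifs and below that with the ISRE core. With the TATA motif added, as in the Icam1 window, 5 tested genes had such a window, of which 2 rose and 0 fell. These shares are given as a description, with no test, and a match is not a binding site. Base composition also differed among the windows, with 64.7% G or C and 19 CpG sites for Icam1, 69.7% and 25 for Alcam, and 58.0% and 6 for Cd44, beside medians of 52.7% and 7 over all windows.

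**Figure D1:**
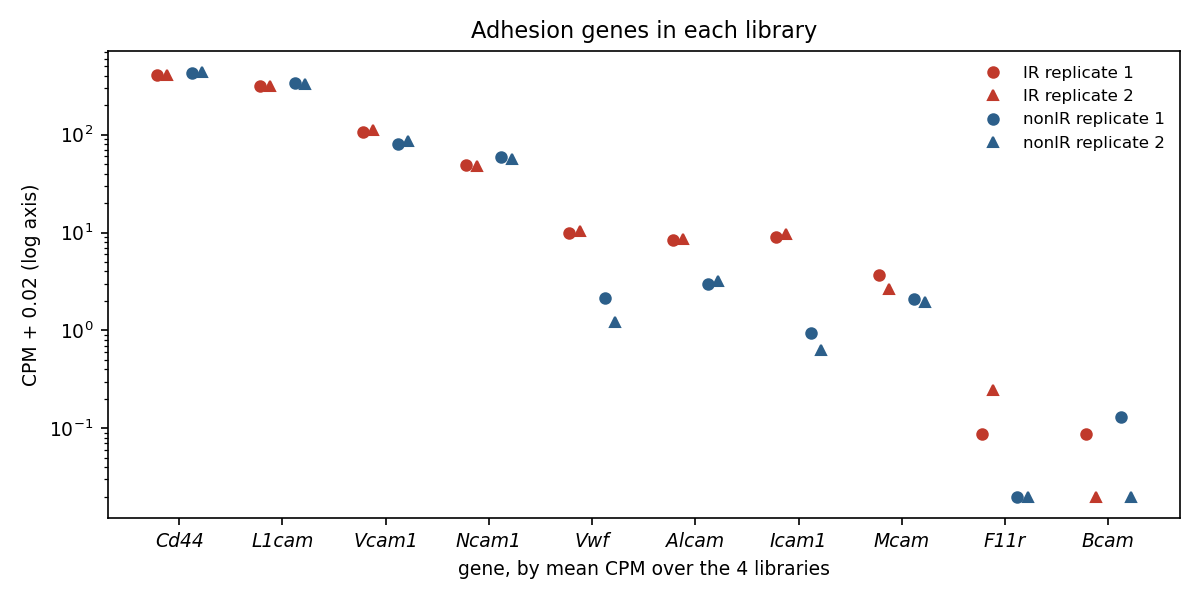
CPM plus 0.02, on a log axis, of each gene in each library, with IR libraries in red left of nonIR libraries in blue and the replicate number given by the symbol. Icam1, Vwf and Alcam sit clearly higher in both IR libraries, Cd44 and L1cam are almost level, and F11r and Bcam lie near the bottom with 0 counts in several libraries.

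Icam1 (ENSMUSG00000037405, chromosome 9, 21015985 to 21028817, GRCm38, plus strand) encodes ICAM-1, the ligand of the leukocyte integrins LFA-1 and Mac-1. It had 269 and 257 counts in the IR libraries and 25 and 18 in the nonIR libraries. The lowest IR library lay far above the highest nonIR one, so the groups did not overlap. In CPM, scaled to library size, Icam1 averaged 9.36 ± 0.456 in IR cells and 0.763 ± 0.207 in nonIR cells (SD, n = 2 each). The fitted log2 fold change was 3.61 (SE 0.27, edgeR adjusted p = 1.49e-40), at rank 354 from the top among 15298 tested genes. The counts alone give a ratio of 12.3 with an exact 95% interval of 9.01 to 17.2, which covers counting error only. An antisense gene, Gm47079, overlaps 511 bases of its exons and was not analysed here.

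Vcam1 (ENSMUSG00000027962, chromosome 3, 116109949 to 116129688, minus strand) encodes the ligand of the integrin alpha4beta1. In contrast to Icam1 it was already abundant in nonIR cells. It had 3210 and 2971 counts in the IR libraries and 2195 and 2508 in the nonIR libraries, or 110 ± 2.89 CPM in IR cells and 82.9 ± 4.27 CPM in nonIR cells (SD, n = 2 each). The groups did not overlap, and the change was small, at 1.32-fold (log2 fold change 0.41, SE 0.05, edgeR adjusted p = 2.87e-14). It did not pass a test against a change of 1.5-fold. Within a library, Vcam1 stood at 5.87 and 5.68 times the Icam1 level per kb of exon in IR cells and at 43.2 and 68.5 times that level in nonIR cells. These inducible ligands of leukocyte integrins thus stood closer together in IR cells, by a ratio within each library that does not depend on scaling.

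Alcam (ENSMUSG00000022636, chromosome 16, 52248996 to 52454074, minus strand) encodes CD166, which binds itself and the lymphocyte receptor CD6. It had 248 and 228 counts in the IR libraries and 81 and 93 in the nonIR libraries, with no overlap. The level was 8.46 ± 0.182 CPM in IR cells and 3.07 ± 0.168 CPM in nonIR cells (SD, n = 2 each), a 2.75-fold rise (log2 fold change 1.46, SE 0.21, edgeR adjusted p = 1.50e-11). Its receptor gene Cd6 had 0 and 4 counts in the IR libraries and 0 in both nonIR libraries.

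Mcam (ENSMUSG00000032135, chromosome 9, 44134469 to 44142727, plus strand) encodes CD146, known from endothelium and melanoma. It had 110 and 70 counts in the IR libraries and 57 in each nonIR library. Both IR libraries lay above the nonIR ones, but they differed among themselves, at 3.70 and 2.64 CPM, against 2.07 and 1.95 CPM in nonIR cells. The log2 fold change of 0.66 (SE 0.31) did not pass the threshold (edgeR adjusted p = 0.0516). It passed under 5 of 13 processing alternatives. Without IR replicate 1 it was 0.38 (edgeR adjusted p = 0.450), and without IR replicate 2 it was 0.87 and passed (edgeR adjusted p = 0.0302).

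Vwf (ENSMUSG00000001930, chromosome 6, 125546774 to 125686679, plus strand) is the secreted member. It had 293 and 273 counts in the IR libraries and 59 and 35 in the nonIR libraries. The IR libraries lay close together and well above the nonIR ones, which differed among themselves. Vwf averaged 10.1 ± 0.312 CPM in IR cells and 1.67 ± 0.670 CPM in nonIR cells (SD, n = 2 each), a 6.03-fold rise (log2 fold change 2.59, SE 0.23, edgeR adjusted p = 1.27e-29). With a nonIR library left out, the log2 fold change lay between 2.22 and 3.05.

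Because Vwf is a gene of endothelial cells, the levels of that cell type's markers are given beside it. Of 12 endothelial markers 10 had a row in the table, and their summed level was 10.2 CPM in each IR library and 6.08 and 4.83 CPM in the nonIR libraries. The defining gene Cdh5, VE-cadherin, had 12 and 3 counts in the IR libraries and 8 and 5 in the nonIR libraries. Kdr, the receptor VEGFR2, had 3 counts in each IR library and 0 in both nonIR libraries, and Emcn 1 in each IR library and 0 in both nonIR libraries. Erg, an endothelial transcription factor, had 7 in each IR library and 0 in both nonIR libraries. Counts in IR libraries beside 0 in nonIR libraries are not particular to these markers, since more genes had counts in IR libraries, as given above. Of the 3 markers that were tested 2 rose, Pecam1 and Tek, and Egfl7 did not pass (edgeR adjusted p = 0.951). Tek, the angiopoietin receptor, had 25 and 23 counts in the IR libraries and 0 and 4 in the nonIR libraries (log2 fold change 3.52, SE 0.87, edgeR adjusted p = 1.37e-04). The highest marker was Pecam1, an adhesion molecule also found on platelets and leukocytes, with 145 counts in each IR library and 63 and 47 in the nonIR libraries (log2 fold change 1.41, SE 0.27, edgeR adjusted p = 6.96e-07). Vwf alone thus had about as many CPM in IR cells as the 10 markers together, but its exons are long, at 16064 bases. Per kb of exon, Vwf stood below Pecam1, at 0.626 against 0.830 CPM in IR cells and 0.104 against 0.313 CPM in nonIR cells. The summed CPM were higher in both IR libraries in every list of cell type markers, not in the endothelial list alone. The part of endothelial cells in the result was not tested. In bulk RNA, more cells of a type and more RNA per cell cannot be told apart.

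**Figure D2:**
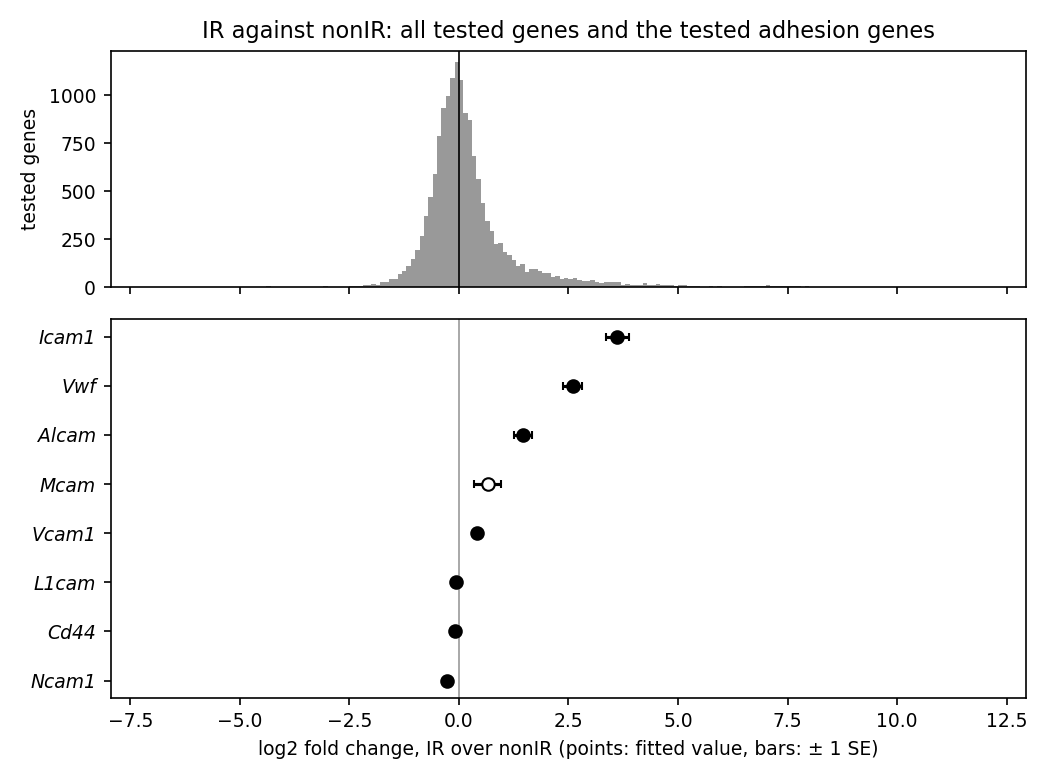
Upper panel, a histogram of the log2 fold change (IR over nonIR) of the 15298 tested genes; lower panel, the fitted log2 fold change of each tested adhesion gene with bars of 1 SE, filled where the adjusted p was under 0.05. Icam1 at 3.61 and Vwf at 2.59 lie in the long right tail, and Cd44, L1cam and Ncam1 lie left of 0 within the central bulk.

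Cd44 (ENSMUSG00000005087, chromosome 2, 102811141 to 102901665, minus strand) was the most abundant member. It had 12131 and 10900 counts in the IR libraries and 11745 and 12787 in the nonIR libraries, which is 408 and 411 CPM in IR cells against 427 and 438 CPM in nonIR cells. The groups separated after scaling, by a small margin. The log2 fold change was -0.08 (SE 0.03, edgeR adjusted p = 0.0157), and it did not pass when libraries were scaled by their totals alone (-0.02, adjusted p = 0.550) or by upper quartile factors (-0.01, adjusted p = 0.810). It also missed the threshold without IR replicate 1 (adjusted p = 0.0792) or without nonIR replicate 2 (0.0809).

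L1cam (ENSMUSG00000031391, chromosome X, 73853778 to 73896105, minus strand), the founding member of the L1 family of neural adhesion molecules, had 9282 and 8450 counts in the IR libraries and 9229 and 9591 in the nonIR libraries. At 312 and 318 CPM in IR cells against 336 and 329 CPM in nonIR cells it lay slightly lower. The fitted value was -0.08 on the log2 scale (SE 0.03, edgeR adjusted p = 0.0365), which likewise did not pass with totals alone (-0.02, adjusted p = 0.668), without IR replicate 1 (adjusted p = 0.183) or without nonIR replicate 1 (0.0989). With the replicate number as a block, L1cam had an adjusted p of 0.0641 at the same fitted value. The ratio of Cd44 to L1cam per kb of exon was 1.42 and 1.40 in the IR libraries and 1.38 and 1.45 in the nonIR libraries, so the ratios of the groups overlapped.

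Ncam1 (ENSMUSG00000039542, chromosome 9, 49502136 to 49798925, minus strand) encodes the neural cell adhesion molecule CD56. It had 1452 and 1268 counts in the IR libraries and 1622 and 1660 in the nonIR libraries, or 48.3 ± 0.715 CPM in IR cells and 57.9 ± 1.53 CPM in nonIR cells (SD, n = 2 each). Both IR libraries lay below both nonIR ones. The log2 fold change was -0.26 (SE 0.07, edgeR adjusted p = 1.53e-04), and it was between -0.30 and -0.19 under all 13 alternatives. It did not pass a test against a change of 1.5-fold.

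F11r and Bcam were at the edge of detection. F11r (ENSMUSG00000038235, chromosome 1, 171437535 to 171464603, plus strand) had 2 and 6 counts in the IR libraries and 0 in both nonIR libraries. With 3 counts set for the whole nonIR group, the fold is 2.68. The exact 95% interval of the ratio, which covers counting error only, starts at 1.72. Entered without the filter, it did not pass (edgeR adjusted p = 0.191). Bcam (ENSMUSG00000002980, chromosome 7, 19756131 to 19771016, minus strand) was counted 2 and 0 times in the IR libraries and 3 and 0 times in the nonIR libraries, which overlap. Neither gene showed a change that passed a test at this depth. Over the whole series more genes had counts in the IR libraries than in the nonIR libraries, as given above.

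The order of the levels was compared per kb of exon, since genes differ in length. Cd44 averaged 60.4 ± 0.322 CPM per kb in IR cells and 63.9 ± 1.11 in nonIR cells, and L1cam 42.9 ± 0.626 in IR cells and 45.2 ± 0.704 in nonIR cells (SD, n = 2 each). Vcam1 followed with 12.4 ± 0.326 CPM per kb in IR cells and 9.35 ± 0.481 in nonIR cells, and Ncam1 with 5.57 ± 0.0825 in IR cells and 6.69 ± 0.176 in nonIR cells. These genes held the upper 4 places in both groups. The next places changed. In IR cells Icam1 (2.15 ± 0.105 CPM per kb) stood above Alcam (1.19 ± 0.0256), Mcam (0.945 ± 0.223) and Vwf (0.626 ± 0.0194). In nonIR cells Mcam (0.601 ± 0.0257) stood above Alcam (0.431 ± 0.0236), Icam1 (0.175 ± 0.0475) and Vwf (0.104 ± 0.0417). The values of neighbouring genes did not overlap between libraries in either group, except for Bcam and F11r in nonIR cells. In IR replicate 1, F11r and Bcam each had 2 counts, so their order in that library rests on exon length alone.

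The summed CPM of the 10 genes were 907 and 920 in the IR libraries and 910 and 916 in the nonIR libraries, which overlap, since Cd44 and L1cam make up most of the sum. Per kb of exon, Cd44 held 47.8% of the summed level in IR cells and 50.5% in nonIR cells, and L1cam 34.0% in IR cells and 35.8% in nonIR cells. Icam1 held 1.70% in IR cells and 0.138% in nonIR cells.

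**Figure D3:**
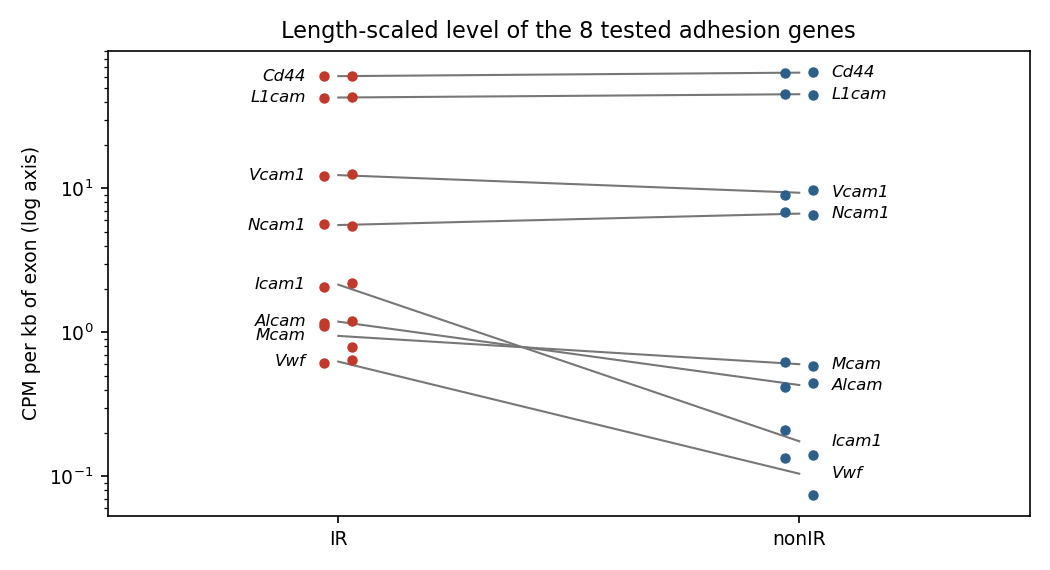
CPM per kb of exon, on a log axis, of the 8 tested genes, with points for the 2 libraries of each group (IR left, nonIR right) and lines joining the group means. The lines of Cd44 and L1cam run almost level, while that of Icam1 crosses those of Alcam and Mcam, at 2.15 CPM per kb in IR and 0.175 in nonIR.

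Levels mattered for how common a call was. Among tested genes with a mean of 1 to 10 CPM, where Icam1, Vwf, Alcam and Mcam lie, 33.3% were higher and 13.5% lower. At 10 to 100 CPM, where Vcam1 and Ncam1 lie, 28.5% were higher and 40.8% lower, and at 100 CPM or more, with Cd44 and L1cam, 32.4% were higher and 49.9% lower. Against a change of 1.5-fold (edgeR's glmTreat, adjusted p under 0.05), Icam1, Vwf and Alcam passed and no member passed as lower. In that test 12.5% of all genes were higher and 5.96% lower.

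By the distance between profiles of log2(CPM + 1), each centred on its own mean over the 4 libraries, the genes nearest to Icam1 among 12833 were Gldc, Thbs1 and Gstt1. Gldc, an enzyme that cleaves glycine, had 259 and 251 counts in the IR libraries and 24 and 19 in the nonIR libraries. Thbs1, the matrix protein thrombospondin 1, had 371 in each IR library and 42 and 31 in the nonIR libraries. The log2 fold changes of Gldc, Thbs1 and Gstt1 were 3.57, 3.35 and 2.98, beside 3.61 for Icam1. The genes nearest to Ncam1, the member that fell most, were Raly, Crip2 and Prps2, with log2 fold changes of -0.26, -0.25 and -0.27. Over 4 libraries, such a distance depends on the size of the change as well as on its direction. It also depends on level, since the added 1 CPM shrinks the change of a gene as low as Icam1 in nonIR cells (0.763 CPM).

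Other immunoglobulin adhesion molecules rose in 11 of 21 tested genes and fell in 5, with a median log2 fold change of 0.30 beside 0.01 over all tested genes. The counts of this and the following lists stand beside 30.4% higher and 30.3% lower over all tested genes. Cadm2, a synaptic adhesion molecule, had 213 and 132 counts in the IR libraries and 15 and 11 in the nonIR libraries (log2 fold change 3.71, SE 0.34, edgeR adjusted p = 4.75e-27). Icam5, the neuronal relative of Icam1 on the same chromosome, had 160 and 78 counts in IR against 38 and 21 in nonIR (1.99, SE 0.32, edgeR adjusted p = 2.98e-09). Neither gene's libraries overlapped, but the IR libraries differed among themselves. The antisense gene Gm26592, with 6 counts in all, covers 26.8% of the Icam5 exon bases. Gm47079, the antisense gene that also overlaps Icam1, covers 116 Icam5 exon bases and was not analysed here. Ceacam1, an inhibitory adhesion molecule and chosen after its values were seen, was the steepest of those that fell, with 285 and 302 counts in the IR libraries and 753 and 762 in the nonIR libraries (-1.36, SE 0.12, edgeR adjusted p = 1.33e-30).

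Receptors that bind the members rose in 5 of 10 tested genes and fell in 3 (median log2 fold change 0.55), beside 30.4% and 30.3% of all tested genes. Itgb2, the beta chain shared by the leukocyte integrins that bind ICAM-1, had 50 and 57 counts in the IR libraries and 6 and 3 in the nonIR libraries (log2 fold change 3.55, SE 0.62, edgeR adjusted p = 4.10e-08). Its partner chain Itgal had 7 and 8 counts in the IR libraries and 1 and 0 in the nonIR libraries and was not tested. Gp1ba, the platelet receptor for von Willebrand factor, had 110 and 138 counts in IR against 40 and 30 in nonIR (1.84, SE 0.31, edgeR adjusted p = 9.85e-09). Of the chains that bind VCAM-1, Itga4 had 13 and 21 counts in the IR libraries and 3 and 0 in the nonIR libraries, whereas Itgb1 was abundant and fell slightly, with 25382 and 22965 counts in IR against 27541 and 29362 in nonIR. Itgb7, another beta chain of this list, rose 1.80-fold, with 14501 and 13200 counts in IR against 7821 and 7643 in nonIR. Itgal, Itga4, Itgb1 and Itgb7 were chosen after their values were seen.

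Since integrins of the beta2 family belong to leukocytes, markers of those cells are given beside them. Of 10 leukocyte markers 9 had a row, and their sum was 41.1 and 35.5 CPM in the IR libraries and 5.24 and 4.21 CPM in the nonIR libraries. Cd68, which encodes a lysosomal membrane protein, made up most of it, with 1120 and 840 counts in the IR libraries and 127 and 112 in the nonIR libraries. The defining gene Ptprc, CD45, had 24 and 17 counts in the IR libraries and 10 and 6 in the nonIR libraries, and did not pass (edgeR adjusted p = 0.0857). Of the 4 leukocyte markers that were tested, Cd68, Itgb2 and Lyz2 rose. Lyz2, lysozyme of myeloid cells, had 23 and 20 counts in the IR libraries and 0 and 2 in the nonIR libraries (log2 fold change 4.28, SE 1.01, edgeR adjusted p = 5.87e-05). The T cell gene Cd3e had 1 count in 1 IR library and 0 in the others. Of platelet markers, whose sum was 13.5 and 16.4 CPM in the IR libraries and 9.90 and 10.1 CPM in the nonIR libraries, Itga2b was the highest (285 and 286 in IR against 221 and 264 counts in nonIR, edgeR adjusted p = 0.165), and Pf4 had 3 and 4 counts in the IR libraries and 0 in both nonIR libraries. The part of such cells in these results was not tested.

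Genes that act with CD44, among them hyaluronan synthases, hyaluronan receptors and the ERM proteins that link CD44 to actin, went both ways. Of 18 tested, 5 were higher and 6 lower (median log2 fold change 0.09), near the shares of 30.4% and 30.3% over all tested genes. Cd74, the invariant chain, which pairs with CD44 as a receptor for the cytokine MIF, had 496 and 372 counts in the IR libraries and 5 and 9 in the nonIR libraries (log2 fold change 5.93, SE 0.28, edgeR adjusted p = 2.50e-97). Stab1, a scavenger receptor related to hyaluronan receptors, rose 3.13-fold (1.64, SE 0.15, edgeR adjusted p = 1.57e-26), although 112 of its exon bases overlap Nt5dc2 on the other strand, a gene with 9202 counts over all libraries against 1277 for Stab1. Among the ERM genes, chosen after their values were seen, Ezr and Rdx fell (-0.44 and -0.41) and Msn, the most abundant, rose slightly (0.20).

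Splicing regulators known to act on the variable exons of Cd44 fell in all 6 tested genes, with a median log2 fold change of -0.81. Each has a mean above 100 CPM, a level at which 49.9% of all tested genes fell. Srsf3 had 5516 and 4820 counts in the IR libraries and 9396 and 10365 in the nonIR libraries (-0.93, SE 0.04, edgeR adjusted p = 1.11e-146), and Srsf1 had 7674 and 6614 in IR against 12977 and 14074 in nonIR (-0.91, SE 0.03, edgeR adjusted p = 1.83e-169). Esrp1 and Esrp2, the epithelial regulators of Cd44 splicing, had at most 5 counts in any library. Counts per gene carry no information on which Cd44 exons were used.

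Proteases that can release adhesion molecules from the cell surface, listed with their regulators and inhibitors, rose in 8 of 13 tested genes and fell in 2 (median log2 fold change 0.12). The number that rose was 5 without IR replicate 2 and 2 in the test against a change of 1.5-fold. In that test 12.5% of all tested genes rose. The gelatinase gene Mmp9 had 316 and 284 counts in the IR libraries and 22 and 48 in the nonIR libraries (3.11, SE 0.23, edgeR adjusted p = 4.92e-39). Timp1, a metalloproteinase inhibitor, had 1861 and 1706 counts in IR against 5228 and 5804 in nonIR (-1.62, SE 0.05, edgeR adjusted p = 1.88e-244). The sheddases best known to cut L1CAM, CD44 and ALCAM, chosen after their values were seen, rose less, Adam10 with a log2 fold change of 0.42 (edgeR adjusted p = 1.31e-21) and Adam17 with 0.12 (0.0214).

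Genes of von Willebrand factor storage, cleavage and clotting rose in 8 of 15 tested genes and fell in 4 (median log2 fold change 0.30). Adamts13, the protease that cleaves von Willebrand factor, had 91 and 56 counts in the IR libraries and 1 and 6 in the nonIR libraries (4.35, SE 0.58, edgeR adjusted p = 2.45e-13). Thbs1, described above as close to Icam1 in profile, rose 10.2-fold (3.35, SE 0.22, edgeR adjusted p = 1.49e-51). Chosen after their values were seen, F8, the clotting factor carried by von Willebrand factor, rose 1.85-fold, and Selp, which is stored with it in endothelial granules, had 312 and 325 counts in the IR libraries and 520 and 569 in the nonIR libraries (-0.76, SE 0.13, edgeR adjusted p = 5.42e-09).

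A further list held cytokines, receptors, transcription factors and feedback inhibitors known to act on Icam1 and Vcam1. Of its 20 tested genes 13 rose and 4 fell (median log2 fold change 0.43). Il1r1, a receptor of interleukin 1, had 473 and 425 counts in the IR libraries and 82 and 112 in the nonIR libraries (2.22, SE 0.17, edgeR adjusted p = 7.72e-38). Tnfaip3, an NF-kappaB feedback inhibitor, had 398 and 391 counts in IR against 152 and 124 in nonIR (1.52, SE 0.16, edgeR adjusted p = 1.42e-19). The ligands themselves were rare, and more genes over the whole series had counts in the IR libraries, as given above. Ifnb1, interferon beta, had 17 and 8 counts in the IR libraries and 0 in both nonIR libraries. With 3 counts set for the nonIR group, the fold is 8.39. Tnf had 2 and 0 counts in the IR libraries and 0 in both nonIR libraries, Ifng 1 and 0 in IR against 0 in both nonIR libraries, and Il1b 1 in each IR library and 0 in both nonIR libraries. Il1a had 2 and 5 counts in the IR libraries and 4 and 0 in the nonIR libraries, which overlap. Irf1 and Nfkbia rose 2.42-fold and 2.07-fold, while Tnfrsf1a, the main receptor of TNF, fell (-0.59). The ligands, Irf1, Nfkbia and Tnfrsf1a were chosen after their values were seen.

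Partners of L1CAM and NCAM1 in signalling and at the cytoskeleton rose in 4 of 8 tested genes and fell in 1 (median log2 fold change 1.06). Fgfr1, a growth factor receptor that both molecules can engage, had 17877 and 16081 counts in the IR libraries and 6866 and 6934 in the nonIR libraries, a 2.48-fold rise (log2 fold change 1.31, SE 0.03, edgeR adjusted p below 1e-300). Ank3, an ankyrin that anchors L1 family proteins, had 93 and 135 counts in IR against 30 and 24 in nonIR (2.09, SE 0.33, edgeR adjusted p = 1.41e-09).

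Tight junction partners of F11R fell in 5 of 9 tested genes and rose in 1 (median log2 fold change -0.16). Prkci, the polarity kinase, fell to 0.746 of its nonIR level (-0.42, SE 0.04, edgeR adjusted p = 6.94e-26). Laminin genes rose in 2 of 7 and fell in 2 (median 0.07), near the shares over all tested genes. Lamb2 had 8984 and 8448 counts in the IR libraries and 3853 and 3997 in the nonIR libraries (1.16, SE 0.04, edgeR adjusted p = 1.02e-204), and Lamb3 rose 1.88-fold (0.91, SE 0.12, edgeR adjusted p = 1.59e-13). Lama5, the chain that BCAM binds and chosen after its values were seen, did not pass (-0.03, adjusted p = 0.617).

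**Figure D4:**
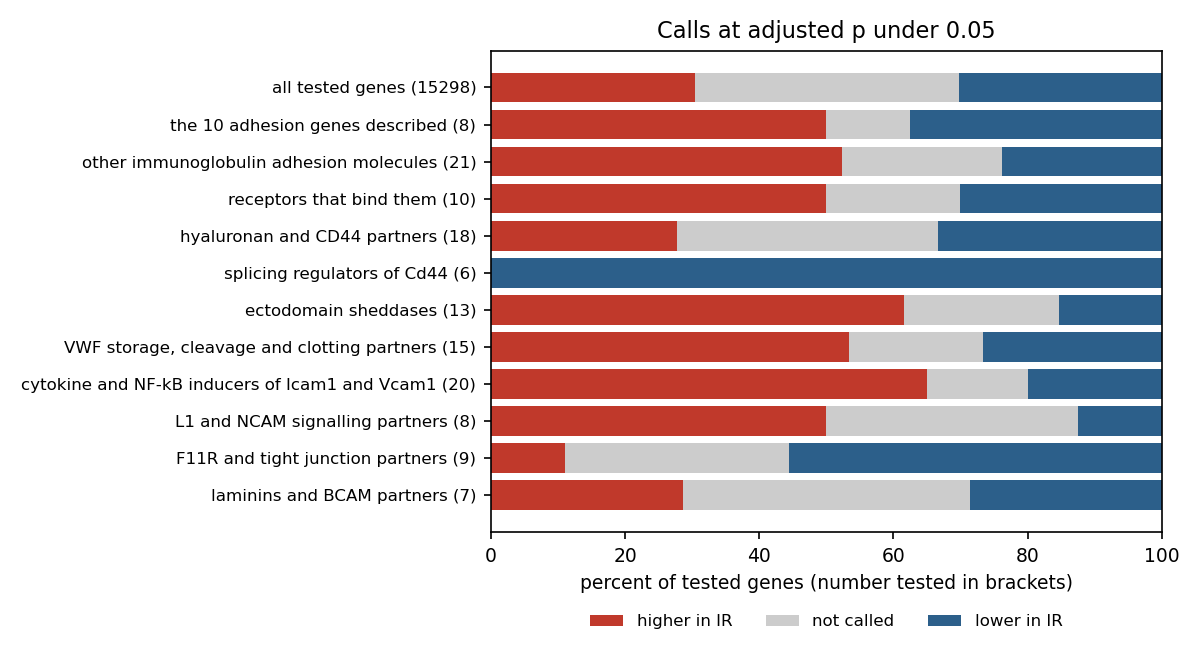
Percent of tested genes called higher (red), not called (grey) and lower (blue) in IR at an adjusted p under 0.05, for all tested genes, the 10 adhesion genes described and each list of related genes, with the number tested in brackets. All 6 tested splicing regulators of Cd44 fell. Of the list of inducers of Icam1 and Vcam1, which also holds feedback inhibitors such as Nfkbia and Tnfaip3, 13 of 20 rose.

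**Figure D5:**
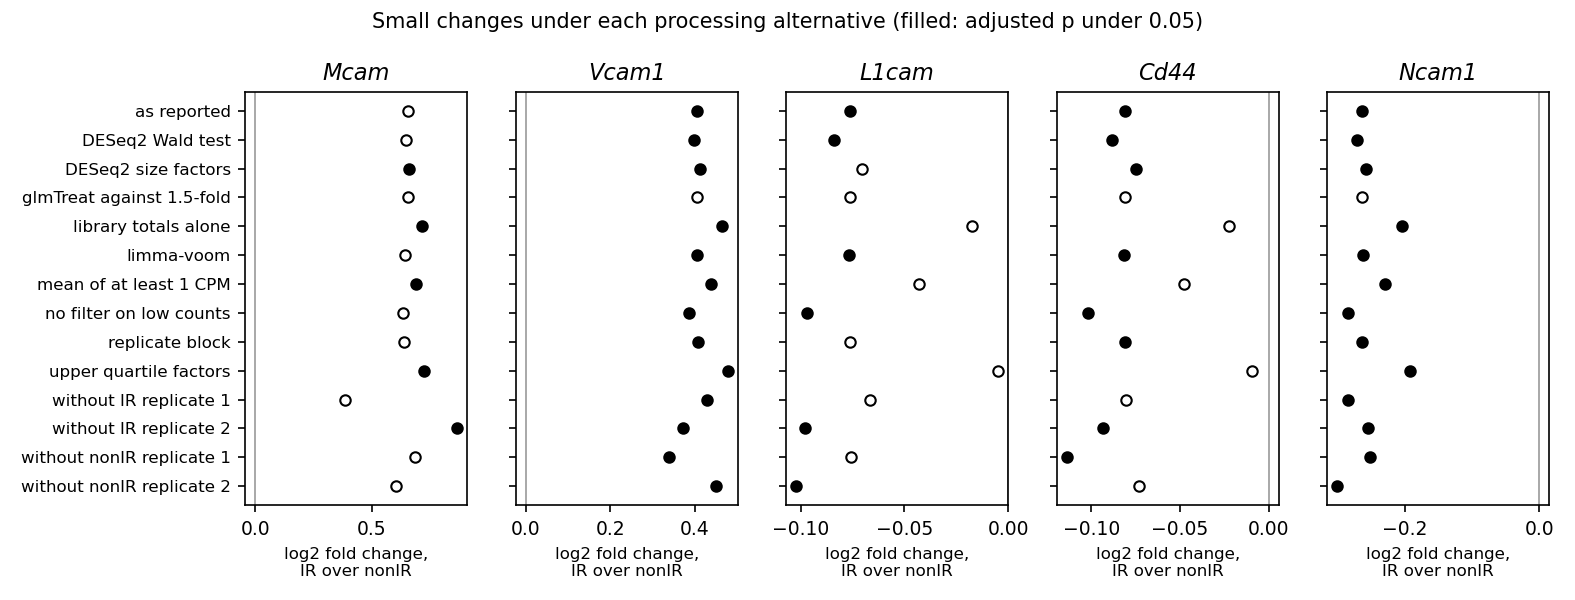
Fitted log2 fold change (IR over nonIR) of the 5 tested genes with the smallest changes under the reported processing and 13 alternatives, filled where the adjusted p was under 0.05; each panel has its own axis. Vcam1 stays between 0.34 and 0.48 and Ncam1 between -0.30 and -0.19, whereas Cd44 and L1cam come close to 0 with upper quartile factors (-0.0095 and -0.0048).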

How the data were processed

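The authors deposited raw counts, whole numbers for each Ensembl gene in each of the 4 libraries. HISAT, HISAT2, HTSeq, DESeq2 and the genome build mm10 are listed in the submitters' processing notes. Their versions and roles, the annotation release, the strand setting and the handling of multiply matching reads were not given in the sources used here. Reads of a gene and of an antisense gene over it therefore cannot be separated. Groups and replicate numbers come from the sample titles. The description of nonIR replicate 2 carries the number of the other nonIR library, and the title was followed.

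Symbols, coordinates and exon lengths come from GENCODE M21 (GRCm38, 1-based), which had a record for 26402 of 26561 genes. Counts were tested with edgeR 4.0.16 (R 4.3.3), using robust glmQLFit and glmQLFTest after filterByExpr by group and TMM scaling, with a term for irradiation alone and Benjamini-Hochberg adjustment over the 15298 genes that passed the filter. CPM are counts per 1000000 of the TMM-scaled library size. The standard error of a log2 fold change was taken as its size over the root of F. For most genes the estimate of the spread came from the trend over all genes. Replicate libraries differed beyond counting noise (mean chi-square per gene 4.93 in IR and 3.43 in nonIR, where 1 is noise). Adjusted p-values under 1e-300 are printed as below that value. Alternatives used DESeq2 1.42.0 and limma 3.58.1. The fit was tested on simulated data with few changed genes, balanced in direction, and the same spread for every gene. In these data 60.7% of tested genes passed, so the simulation does not address the scaling behind the Cd44 and L1cam calls.

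The 10 genes and the lists of related genes were chosen with earlier results of these data known. Named in the text by rule are all 10 genes, the 2 most changed genes of each list among those called with at least 1 CPM and separated libraries, the highest gene of each marker list, and the 3 genes nearest in profile to the members that rose and fell most. Other genes are marked in the text as picked with their values known, or are rare partners and defining markers. A gene that this rule selects is not reported here. List genes with no row in the table were not analysed here. Folds against a group without counts use 3 counts for that group. They leave out the counting error of the other group, so they are not strict lower bounds.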

Additional observations from a re-analysis of the deposited data

How the results depend on the processing

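With 13 other settings, none turned the direction of a tested member. Icam1, Vwf and Alcam passed under each, with log2 fold changes of 3.35 to 3.90, 2.22 to 3.05 and 1.39 to 1.53. Vcam1 and Ncam1 passed under all but the test against a 1.5-fold change. L1cam lost its call under 8 alternatives and Cd44 under 6, with library totals, upper quartile factors, a filter at 1 CPM and the test against 1.5-fold among both. The number of members lower, 3 as reported, was 1 with library totals, with upper quartile factors and with a mean of at least 1 CPM, 0 in the test against 1.5-fold, and 1 to 3 when a library was left out. Members higher numbered 3 to 5, laminin genes lower 0 to 2 (2 as reported, 1 without IR replicate 1 or nonIR replicate 2) and tight junction genes higher 0 to 3 (1 as reported, 2 without IR replicate 2, 3 without nonIR replicate 1). In the test against 1.5-fold, 1911 genes were higher and 912 lower over all tested genes, against 4655 and 4634 as reported. The scalings moved the median of all genes by at most 0.07 (log2), about the size of the Cd44 and L1cam changes. With the replicate number as a block, L1cam (-0.08, adjusted p = 0.0641) lost its call, 2 members were lower, and no other member's call changed. Deviations of libraries with the same number did not move together (r = -0.01 across genes), so the numbers are not treated as pairs. Leaving out 1 library leaves a lone library that is assumed to vary like the other group. F11r was tested without the filter (edgeR adjusted p = 0.191) and with the DESeq2 Wald test (adjusted p = 0.191). Bcam was tested only without the filter (edgeR adjusted p = 0.876), and neither gene passed.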
